A study of Mus musculus with 12 samples.

Results

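The 9 genes Irf8, Irf5, Maf, Pou2f2, Spi1, Runx1, Cebpa, Cebpb and Ikzf1 encode transcription factors of myeloid cells, the lineage of microglia, macrophages, monocytes and granulocytes. They were taken by symbol from the 55376 gene symbols of the raw count table. They were selected from results of the same table, since several were among the clearest rises in Jab1 mutants. Their Jab1 mutant against WT values are therefore given as a description, and nothing is read from their tests in that comparison. All 9 were among the 17716 genes that reached 1 CPM, a count scaled by library size, in 4 or more of the 12 samples. Of them, Runx1, Cebpa and Ikzf1 had 0 WT samples at 1 CPM and passed only through the mutants.

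The RNA came from mature oligodendrocytes, the myelin-forming cells of the brain, of mice labelled C57BL/6 at postnatal day 40. The study lists the strain of the p21 knockout line as 129S6/SvEvTac, backcrossed. The cells had been sorted by FACS as live O1+ CD45– cells after collagenase digestion and a Percoll gradient, with 2 brains pooled per sample. O1 is a surface lipid of differentiated oligodendrocytes, and CD45, the product of Ptprc, is a surface protein of leukocytes. There were 4 WT samples, 4 Cnp-Cre Jab1fl/fl samples (Jab1 mutants below) and 4 p21-/- Cnp-Cre Jab1fl/fl samples (double mutants), with the replicates numbered 1, 3, 5 and 6 in WT, 1 to 4 in Jab1 mutants and 1, 2, 3 and 5 in double mutants. Cnp-Cre acts in late progenitors and oligodendrocytes, and in Schwann cells, and removes floxed Jab1 (Cops5), which encodes the catalytic subunit of the COP9 signalosome. The p21 (Cdkn1a) deletion of the double mutants is constitutive and so affects every cell type. No group carried the p21 deletion alone, so its own effect on these genes cannot be told apart from its effect in Jab1 mutants. The question put by the design is how oligodendrocyte RNA differs without Jab1, and how it differs when p21 is deleted as well.

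Myeloid identity is built by a small set of such factors. PU.1, the product of Spi1, is an ETS-family factor required for macrophages and microglia, and it opens enhancers at which partners of the IRF, C/EBP and RUNX families bind. IRF8 pairs with PU.1 and is needed for microglia and monocytes, RUNX1 acts before PU.1 during blood development, and C/EBPα and C/EBPβ drive granulocyte and monocyte genes. In healthy brain several of these factors, such as PU.1 and IRF8, are known mainly from microglia and other macrophages, and are not part of the usual oligodendrocyte program.

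Facts of the whole table come first. Total counts per sample ran from 61485556 to 153495112, so that 1 CPM stood for at least 61.5 counts. The gene of Jab1, Cops5, averaged 103 ± 39.8 CPM for WT (SD, n = 4), 66.9 ± 18 CPM for Jab1 mutants and 58.6 ± 21.5 CPM for double mutants, and the groups overlapped. Cdkn1a was at 41.6 ± 31.5, 452 ± 123 and 88.4 ± 17.9 CPM (SD, n = 4 each). Counts per gene do not separate the deleted exons from the others, so neither value checks a label. The mature oligodendrocyte markers, 10 genes such as Mbp and Mog, summed to between 39031 and 93440 CPM in WT. The sums were 8800 to 33777 CPM in Jab1 mutants and 16106 to 50487 CPM in double mutants. In Jab1 mutants 6 of the 10 fell at an adjusted p below 0.05 (edgeR), as did 435 of all 17716 genes tested. Opalin, a myelin membrane protein, led them with a log2 fold change of -4.29 (SE 0.78, adjusted p = 0.00909). Mbp was not among the 6, at 10798 ± 4478 CPM in WT and 13038 ± 9371 CPM in Jab1 mutants.

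Microglial markers were present in the O1+ CD45– samples and differed with genotype. The summed level of 20 such genes, among them P2ry12, Tmem119, Cx3cr1 and the C1q chains, was 105 to 351 CPM in WT and 1211 to 3421 CPM in Jab1 mutants, and all 20 were detected in every genotype. Of these 20, 18 were higher in Jab1 mutants at an adjusted p below 0.05 (edgeR), beside 5.19% of all genes tested. Trem2 came first (log2 fold change 5.62, SE 0.55, adjusted p = 0.000534). In double mutants the sum was 476, 1118, 24176 and 2730 CPM. The value of 24176 CPM, from double-mutant replicate 3, was 9.1 times the median of the Jab1 mutants, and this library also held the highest summed level of monocyte and neutrophil markers, 126 CPM against at most 17.3 CPM elsewhere, and of lymphocyte markers, 43.2 CPM against at most 18.7 CPM elsewhere. The edgeR fold changes of the factors in double mutants are therefore given with and without this library. The 8 monocyte and neutrophil markers summed to 0.624 to 2.19 CPM in WT and 8.11 to 17.3 CPM in Jab1 mutants, with no overlap. Single genes made up most of the Jab1-mutant sums. Ly6c2 was at 10.8, 7.64 and 14.3 CPM in Jab1-mutant replicates 1, 3 and 4, and Ngp at 7.17 CPM in replicate 2. In that replicate Ly6c2 was at 1.45 CPM, inside its WT range of 0.564 to 2.1 CPM. S100a8, S100a9 and Ltf were at 0 in the Jab1 mutants. In the double mutants other than replicate 3 the sum was 2.29 to 15.1 CPM. The 10 lymphocyte markers summed to 1.46 to 4.94 CPM in WT, 2.2 to 18.7 CPM in Jab1 mutants and 2.64 to 3.62 CPM in those double mutants, and Ms4a1 was at 0 in the Jab1 mutants. Of these 18 markers 2 passed the filter on low values, Ly6c2 with a log2 fold change of 2.86 (adjusted p = 0.065, edgeR) and Trac with 0.52 (adjusted p = 0.863) in Jab1 mutants against WT. The border macrophage markers summed to between 7.13 and 10.6 CPM in WT and between 33.9 and 93.7 CPM in Jab1 mutants, where F13a1 was at 0. Most of this difference was 1 gene, Stab1, at 39.9, 29.7, 80 and 23.8 CPM in Jab1 mutants and 0.726 to 6.65 CPM in WT. Among the 5 tested border macrophage markers, 3 had a log2 fold change above 0 and 2 below 0 in Jab1 mutants against WT. The part of these cell types in the results that follow was not tested, and in such bulk samples more cells of a type and more RNA per cell cannot be told apart.

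The sequences before the start sites of 4 factors are shown because the genes moved together in Jab1 mutants while double-mutant replicate 3 was high in Irf8 and Irf5 but not in Pou2f2. RefSeq windows (GRCm38.p6) were found for 7 of the 9 genes, and Spi1 and Maf had none in the table used. In the 250 bases before each start, 7 words bound by these families were searched on both strands. They were GAGGAA for PU.1 (in 23.3% of all 32851 windows), TGNGGT for RUNX (in 40.1%), GAAANNGAA for IRF (in 7.13%), ATTTGCAT for OCT2 (in 1.6%), TTGCNNAA for C/EBP (in 9.56%), TGCTGAC for MAF (in 3.81%) and TGGGAA for Ikaros (in 21.6%). Capitals mark the matches, and each sequence runs 5′ to 3′ on the strand of its gene.
Pou2f2, chr7:25132513-25132710, reverse strand, without the 52 bases next to the start that lie in annotated exons: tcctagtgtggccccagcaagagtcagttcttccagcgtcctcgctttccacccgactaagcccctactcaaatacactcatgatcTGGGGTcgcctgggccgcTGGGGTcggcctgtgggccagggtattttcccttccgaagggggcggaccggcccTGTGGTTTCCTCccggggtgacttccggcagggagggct
Irf8, chr8:120736108-120736357, forward strand: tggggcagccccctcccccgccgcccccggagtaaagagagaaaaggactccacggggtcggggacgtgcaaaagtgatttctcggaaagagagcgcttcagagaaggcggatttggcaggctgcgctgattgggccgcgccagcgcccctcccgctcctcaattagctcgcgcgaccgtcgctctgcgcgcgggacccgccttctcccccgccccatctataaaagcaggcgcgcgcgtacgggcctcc
Irf5, chr6:29526375-29526624, forward strand: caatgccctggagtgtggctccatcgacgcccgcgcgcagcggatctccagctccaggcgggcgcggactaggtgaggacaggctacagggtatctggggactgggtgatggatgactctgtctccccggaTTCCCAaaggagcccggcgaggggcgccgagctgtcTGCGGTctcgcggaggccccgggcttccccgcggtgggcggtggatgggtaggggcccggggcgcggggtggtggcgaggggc
Runx1, chr16:92697330-92697579, reverse strand, the start inside the longer transcript: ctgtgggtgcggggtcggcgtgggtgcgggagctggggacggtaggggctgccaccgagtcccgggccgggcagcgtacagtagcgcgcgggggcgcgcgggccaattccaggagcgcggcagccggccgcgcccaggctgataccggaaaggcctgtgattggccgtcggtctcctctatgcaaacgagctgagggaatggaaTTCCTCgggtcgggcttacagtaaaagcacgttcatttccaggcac

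The Pou2f2 window held 3 RUNX words, starting at positions -164, -146 and -91, counted back from the start, and 1 PU.1 word on the other strand at -85 that adjoins the last of them. Windows with 3 or more RUNX words were 2.14% of all windows, and windows with both words were 9.25%. These combinations are the ones that the Pou2f2 window held, so the percentages do not measure how unusual that window is. The Irf8 window shown held 0 of the 7 words, and the window of a start further inside the gene held a RUNX and an Ikaros word. Irf5 held a RUNX word at -83 and an Ikaros word at -119, and the inner Runx1 start held a PU.1 word at -46. The windows of Cebpa, Cebpb and Ikzf1 held 0 matches, as did the outer Runx1 start. No match shared a base with another, and a match is a description of the letters, not of binding.

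Irf8 and Spi1 encode the partners IRF8 and PU.1, which are needed for microglia and also for other myeloid cells. In GRCm38, Irf8 is a forward-strand gene of chromosome 8 between 120736358 and 120756694. It was at 0.88, 1.27, 1.31 and 0.834 CPM in WT, at 44.3, 26.4, 50.9 and 25 CPM in Jab1 mutants and at 2.88, 7.97, 136 and 26.5 CPM in double mutants. Every Jab1-mutant and every double-mutant sample was above every WT sample, and the double mutants spread on both sides of the Jab1 mutants. The log2 fold change of Jab1 mutants against WT was 5.09 (SE 0.45), the most precise of the 9.

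Spi1, on chromosome 2 from 91082390 to 91115756 on the forward strand, overlaps no other gene of the annotation. Its levels were 1.23, 0.459, 0.614 and 1.46 CPM in WT and 12.6, 10.1, 12.2 and 15 CPM in Jab1 mutants, the narrowest spread relative to the mean of the 9 in that group. In double mutants they were 0.0214, 1.87, 105 and 16.9 CPM, the first of which rests on 2 counts. Double mutants therefore held both the lowest and the highest Spi1 level of the 12 samples. The log2 fold change of Jab1 mutants against WT was 3.73 (SE 0.64).

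Irf5, which acts in Toll-like receptor signaling and inflammatory cytokine expression, lies on chromosome 6 from 29526625 to 29541871 on the forward strand. It was at 0.408, 1.82, 2.78 and 3.6 CPM in WT, at 19.6, 8.94, 25 and 21.3 CPM in Jab1 mutants and at 4.21, 7.18, 75.7 and 15 CPM in double mutants. All samples of both mutant genotypes were above the WT range. Its log2 fold change in Jab1 mutants was 3.12 (SE 0.69). The gene overlaps Tnpo3 on the other strand, which was at 38 to 87.7 CPM in WT and 26.4 to 66.9 CPM in Jab1 mutants, and whether reads were counted by strand is not stated.

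Maf encodes c-MAF, a large MAF protein of tissue macrophages, and lies on chromosome 8 from 115682942 to 115707794 on the reverse strand. Its 4 WT samples were at 3.94, 2.31, 3.24 and 9.01 CPM and the Jab1 mutants at 30.8, 25.7, 44.9 and 39.3 CPM, with a log2 fold change of 2.93 (SE 0.49). Double mutants were at 7.93, 2.64, 58.7 and 20.4 CPM, so that replicates 1 and 2 lay within the WT range and replicate 3 above every Jab1 mutant.

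Pou2f2 encodes OCT2, an octamer-binding factor best known from B lymphocytes and also present in macrophages. It spans chromosome 7 from 25087344 to 25179726 on the reverse strand. Among the 9 it had the highest level in Jab1 mutants, at 217, 106, 240 and 210 CPM, against 1.02, 0.491, 0.862 and 3.16 CPM in WT. Double mutants were at 21.2, 19, 23.6 and 72.8 CPM. The 3 genotypes did not overlap, with double mutants between the other two, and double-mutant replicate 3 lay among the other double mutants for this gene. The log2 fold change of Jab1 mutants against WT was 7.13 (SE 0.67). Its upstream window is the one printed with 3 RUNX words and an adjoining PU.1 word. The antisense gene D930028M14Rik, which overlaps Pou2f2, reached at most 2.52 CPM in any sample.

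Ikzf1 encodes Ikaros, a zinc-finger factor of lymphoid and myeloid development, on chromosome 11 from 11685003 to 11772926 on the forward strand. Its counts were 0, 0, 0 and 14 in WT, so that its fitted log2 fold change of 8.67 (SE 1.62) rests on WT replicate 6 and is no bound. Without that library it was 13.57, a value that depends on the prior count. It was at 4.79, 9.18, 26.2 and 20 CPM in Jab1 mutants and at 2.87, 1.49, 21.2 and 0.262 CPM in double mutants, all above the highest WT sample at 0.152 CPM. Gm12000, which overlaps Ikzf1 on the other strand, was at 1.03 to 4.11 CPM in Jab1 mutants and at most 0.0217 CPM in WT.

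Runx1, on chromosome 16 from 92601466 to 92826149 on the reverse strand, had 2, 112, 0 and 0 counts in WT. In Jab1 mutants it was at 6.15, 5.37, 15.2 and 10.4 CPM and in double mutants at 2.45, 0.143, 12.4 and 3.49 CPM. Its fitted log2 fold change in Jab1 mutants was 5.62 (SE 1.69) with WT replicate 3 and 10.22 without it, because the remaining WT samples held 2 counts in all. The double mutants overlapped both other groups.

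The 2 C/EBP genes have 1 exon each. Cebpa, on chromosome 7 from 35119293 to 35121928 on the forward strand, was the lowest of the 9 in Jab1 mutants, at 1.35, 1.3, 3.11 and 2.22 CPM against 0.0544, 0.22, 0.238 and 0.0217 CPM in WT, with a log2 fold change of 3.89 (SE 1.17). In double mutants it was at 0.107, 1.01, 1.34 and 2.79 CPM. Cebpb, on chromosome 2 from 167688915 to 167690418 on the forward strand, was the highest of the 9 in WT per kilobase of exon. It was at 5.18, 4.25, 4.21 and 1.61 CPM in WT, at 15.3, 23.4, 24 and 26 CPM in Jab1 mutants and at 16.9, 5.92, 10.2 and 2.75 CPM in double mutants. Its log2 fold change in Jab1 mutants, 2.54 (SE 0.48), was the smallest of the 9. Tmem189, which overlaps Cebpb on the other strand, went the opposite way, at 152 to 307 CPM in WT and 61.6 to 131 CPM in Jab1 mutants.

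**Figure D1:**
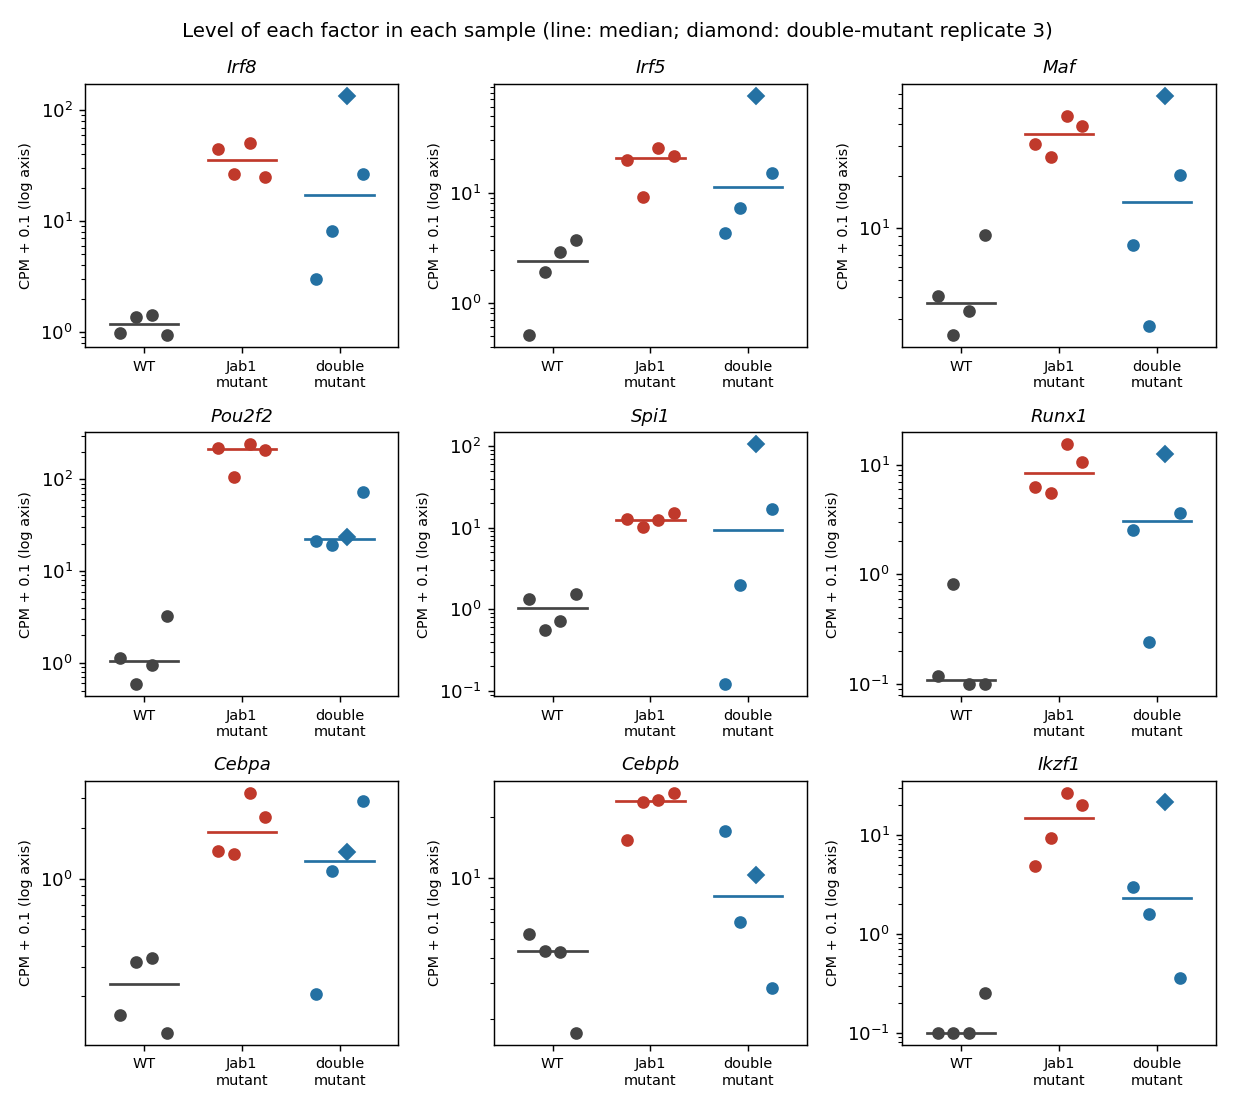
Level of each of the 9 factors in each sample, as CPM + 0.1 on a log axis, by genotype. Points are samples, lines are group medians and the diamond is double-mutant replicate 3. For Pou2f2 the 3 genotypes do not overlap, at 0.491 to 3.16, 19 to 72.8 and 106 to 240 CPM, whereas for Spi1 the double mutants range from 0.0214 to 105 CPM.

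Per kilobase of exon, which is the scale on which genes can be compared with each other, the order of the factors changed with genotype. In WT, Cebpb was first at 2.53 ± 1.02 CPM per kb (SD, n = 4), followed by Irf5 at 0.813 ± 0.518 and Maf at 0.561 ± 0.364 CPM per kb, while Pou2f2 was sixth at 0.181 ± 0.157 and Ikzf1 last at 0.0068 ± 0.0136 CPM per kb. In Jab1 mutants Pou2f2 was first at 25.2 ± 7.76, followed by Cebpb at 14.7 ± 3.15 and Irf8 at 10.7 ± 3.77 CPM per kb, with Cebpa last at 0.757 ± 0.325 CPM per kb. In double mutants Spi1 led at 15.2 ± 24.5 CPM per kb, a mean carried by replicate 3, ahead of Irf8 at 12.6 ± 18.2 CPM per kb. Without that library the order was Cebpb at 5.67 ± 4.95, Pou2f2 at 4.91 ± 3.97, Irf8 at 3.62 ± 3.61, Irf5 at 3.32 ± 2.11 and Spi1 at 3.07 ± 4.54 CPM per kb (SD, n = 3). With all 4 samples of each genotype, every factor overlapped its next neighbor in the order.

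All 9 factors were above the WT range in all Jab1-mutant samples, which 9.88% of the 17716 genes tested were as well. At an adjusted p below 0.05 edgeR called 7 of the 9 higher in Jab1 mutants (not Runx1 or Cebpa), beside 5.19% of all genes tested, and DESeq2 called all 9, beside 9.61%. The members were chosen for this contrast, so nothing is read from these counts. Their median log2 fold change was 3.89, and that of all genes tested was 0.02.

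The double mutants were not used to choose the factors, but the WT samples they are compared with were. In double mutants against WT, Pou2f2 was the member that passed, with a log2 fold change of 4.61 (SE 0.75, adjusted p = 0.0437, edgeR). Thus 1 of 9 was called higher, beside 0.175% of all genes tested. Without double-mutant replicate 3 the change of Pou2f2 was 4.76 and missed the threshold (adjusted p = 0.0606, edgeR), and it also missed the threshold without any one of WT replicates 1, 3, 5 and 6 or of double-mutant replicates 2 and 5, when the log2 fold change was 3.92 to 5.42. DESeq2 called 5 members (Irf8, Irf5, Pou2f2, Spi1 and Ikzf1), beside 3.8% of genes.

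The other 8 factors did not pass in edgeR, and the fold changes of 6 of them were smaller without replicate 3. Irf8 had a log2 fold change of 5.33 (SE 1.1, adjusted p = 0.0875, edgeR), and of 3.53 without replicate 3 (adjusted p = 0.144). Spi1 had 5.04 (SE 1.65, adjusted p = 0.242, edgeR), and 2.71 without it (adjusted p = 0.579). For Irf5 the values were 3.56 (SE 1) and 2.03, for Maf 2.27 (SE 0.86) and 1.15, for Ikzf1 7.41 (SE 2.13) and 5.34, and for Runx1 4.62 (SE 1.99) and 3.48. Cebpa and Cebpb moved little, from 3.28 (SE 1.36) to 3.27 and from 1.22 (SE 0.67) to 1.18. Irf8, Irf5, Pou2f2 and Ikzf1 were above every WT sample in all 4 double mutants, as were 4.52% of the genes tested.

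In double mutants against Jab1 mutants, 0 of the 9 factors passed the threshold of edgeR, as 0% of all 17716 genes did. At an unadjusted p below 0.05 there were 2 members, Pou2f2 and Cebpb, both lower in double mutants, beside 5% of all genes tested. Without replicate 3 there were 4, Irf8, Maf, Pou2f2 and Ikzf1, all lower, beside 5.23% of all genes. Pou2f2 had a log2 fold change of -2.50 (SE 0.5, adjusted p = 0.44, edgeR), and of -2.33 without replicate 3 (adjusted p = 0.572). It was the 1 member with every double mutant below every Jab1 mutant, which 1.99% of the genes tested showed, and the 1 member that DESeq2 called (adjusted p = 0.000167), beside 0.384% of genes lower by that tool. Cebpb had a log2 fold change of -1.31 (SE 0.56, adjusted p = 0.968, edgeR), with double-mutant replicate 1, at 16.9 CPM, inside the Jab1-mutant range. These comparisons share the Jab1-mutant samples in which the factors had been chosen as high, and that choice favors a lower value in the other group.

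The sign of 3 factors in this comparison rested on double-mutant replicate 3. Irf8, Irf5 and Spi1 had log2 fold changes of 0.24 (SE 0.91), 0.45 (SE 0.8) and 1.31 (SE 1.38) with it, and of -1.54, -1.07 and -0.98 without it. Maf, Runx1 and Ikzf1 were at -0.65, -1.01 and -1.22 with it and at -1.74, -2.16 and -3.25 without it. Of the 9 factors, 0 were above 0 without replicate 3, with adjusted p values of 0.572 to 1 (edgeR) for the 9.

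**Figure D2:**
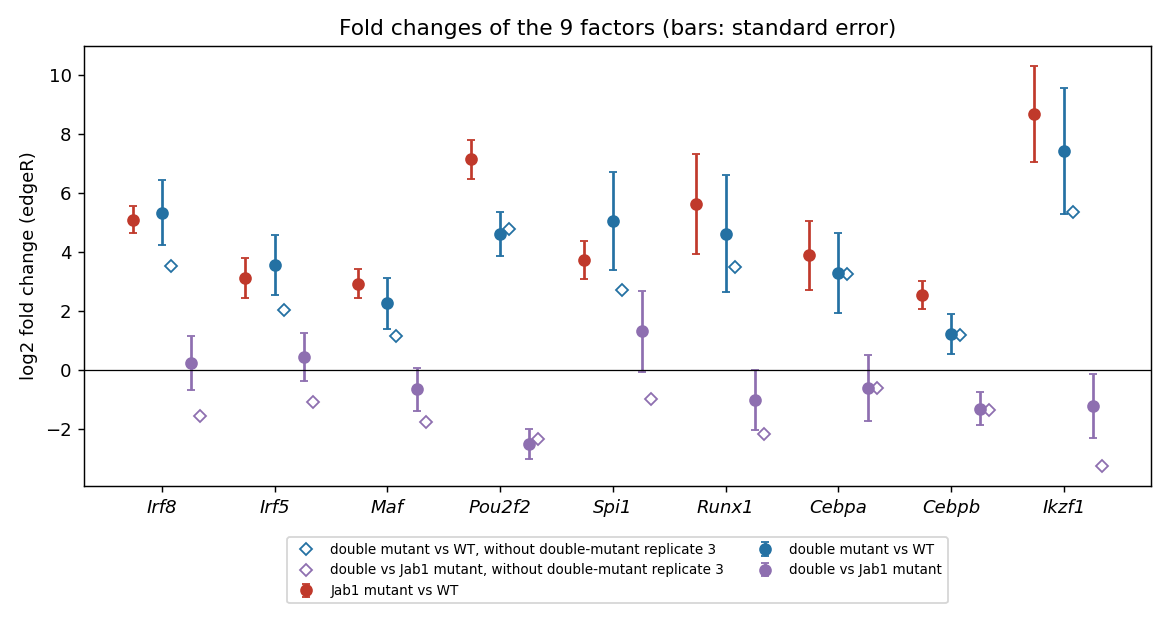
Log2 fold changes (edgeR) of the 9 factors in Jab1 mutants and double mutants against WT, and in double against Jab1 mutants. Bars are standard errors and open diamonds are the values without double-mutant replicate 3, which move Irf8, Irf5 and Spi1 from 0.24, 0.45 and 1.31 to below 0 in double against Jab1 mutants but leave Pou2f2 at -2.50 and -2.33.

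The factors were also set against the microglial markers of the same sample. As CPM per 1000 CPM of summed microglial markers, Spi1 was at 1.75 to 6.47 in WT, 3.77 to 8.31 in Jab1 mutants and 0.0449, 1.67, 4.34 and 6.17 in double mutants. The WT and Jab1-mutant ranges overlapped, and double-mutant replicates 1, which rests on 2 counts, and 2 were below every WT sample. Irf8 was at 3.14 to 12.1 in WT, 7.31 to 25.9 in Jab1 mutants and 6.06, 7.13, 5.62 and 9.7 in double mutants. Irf5, Maf, Runx1, Cebpa and Cebpb also had overlapping WT and Jab1-mutant ranges on this scale.

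Pou2f2 was at 2.45 to 11.9 CPM per 1000 marker CPM in WT, at 61.4 to 122 in Jab1 mutants and at 44.5, 17, 0.974 and 26.7 in double mutants, with no overlap between Jab1 mutants and either other genotype. Ikzf1, at 0 to 0.57 in WT and 1.43 to 13.3 in Jab1 mutants, was the other member whose WT and Jab1-mutant ranges did not meet, and its double mutants, at 0.0959 to 6.03, overlapped both. Its WT range rests on 14 counts in replicate 6 and 0 in the others. The share of all genes without overlap on this scale was not computed, so nothing is read from these 2 members. In double-mutant replicate 3, where the marker sum was 9.1 times the Jab1-mutant median, the CPM of Spi1 was 8.46 times, of Irf8 3.85 times, of Irf5 3.7 times and of Pou2f2 0.11 times the median of the Jab1 mutants. The ratio of Pou2f2 to Spi1 was 0.831 to 2.16 in WT and 10.5 to 19.7 in Jab1 mutants, and in double-mutant replicates 2, 3 and 5 it was 10.2, 0.225 and 4.32. Double-mutant replicate 1 gave 993 on 2 Spi1 counts and is not compared. These ratios are descriptions of the samples that chose the factors and carry no test.

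**Figure D3:**
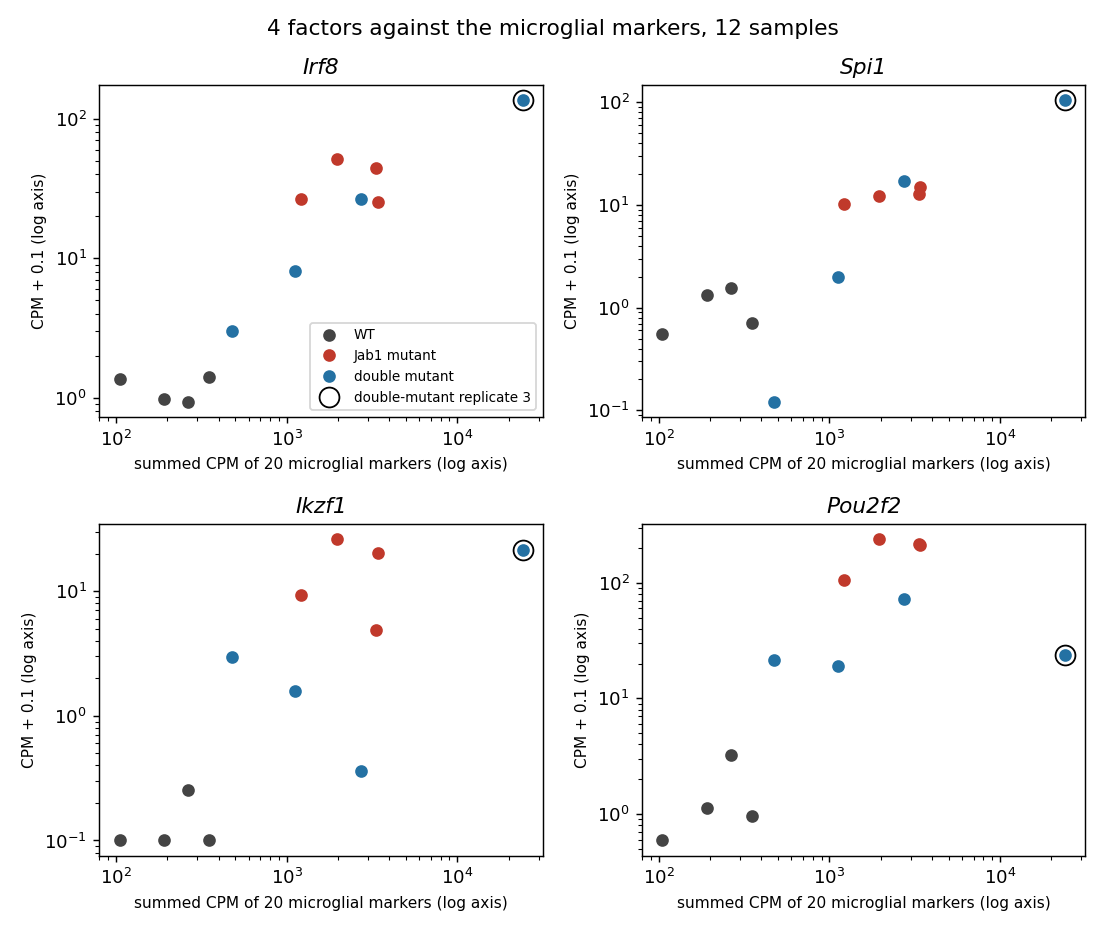
CPM + 0.1 of Irf8, Spi1, Ikzf1 and Pou2f2 against the summed CPM of 20 microglial markers in the 12 samples, both on log axes. The circled double-mutant replicate 3, at 24176 CPM of markers, is the highest sample for Irf8 (136 CPM) and Spi1 (105 CPM) but is at 23.6 CPM of Pou2f2, below the 4 Jab1 mutants. 2 of the Jab1-mutant points of Pou2f2 lie on each other.

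The factors also varied between samples of one genotype. After genotype means were subtracted from log2(CPM + 1), Pearson's r with the summed microglial markers over the 12 samples, which share the libraries and the high replicate 3, was 0.92 for Spi1, 0.91 for Irf5, 0.89 for Irf8 and 0.79 for Maf. It was 0.61 for Runx1, 0.54 for Ikzf1, 0.44 for Cebpa, 0.26 for Pou2f2 and -0.19 for Cebpb. Between members, r was 0.95 for Irf8 with Spi1 and 0.21 for Irf8 with Pou2f2. These are descriptions over samples that are not alike in depth or makeup.

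The genes with the pattern most like the mean of the 9 factors over the 12 samples, by Pearson's r of log2(CPM + 1), were Ptprc (r = 0.990), Ltc4s (0.986), Ifi204 (0.981), Slc15a3 (0.980) and Btk (0.980). After genotype means were subtracted they were Slc15a3 (0.974), Ppfia4 (0.973), Itgam (0.960), Gm28874 (0.960) and Ccl4 (0.958). Ptprc, which encodes CD45, averaged 0.454 ± 0.72 CPM for WT (SD, n = 4), 63.8 ± 31.5 CPM in Jab1 mutants and 29.9 ± 47.6 CPM in double mutants (6.14 ± 4.15 CPM without replicate 3), in cells sorted as CD45–. Itgam, which encodes CD11b, a surface protein of myeloid cells that the study's gating scheme also excluded, was at 1.46 ± 0.66, 20.4 ± 12.1 and 19.2 ± 24.2 CPM (7.26 ± 5.27 CPM without replicate 3). The study reports that cytometry of the sorted cells found no overt contamination by CD45+ cells in any genotype. It also reports that the sorted O1+ cells were less than fully pure on reanalysis, and it leaves room for a little contamination by other cells. RNA in bulk samples and protein on the surface of single cells are unlike measures.

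Several relatives of the factors were higher in Jab1 mutants as well. Of 37 genes of the same families, 27 passed the filter. In Jab1 mutants 9 of the 27 were higher and 0 lower at an adjusted p below 0.05 (edgeR). Of all genes tested 5.19% were higher. The median log2 fold change of the 27 was 1.42. This list and the gene lists below were chosen with earlier results of these data known. Among the IRF genes, Irf7, the master factor of type I interferon induction, rose from 9.47 ± 4.09 to 102 ± 39.2 CPM (SD, n = 4; log2 fold change 3.43, SE 0.45, adjusted p = 0.00213), Irf9, the DNA-binding subunit of the interferon-stimulated complex ISGF3, rose by 2.08 and Irf2 by 1.83 on the log2 scale, whereas Irf3, the IRF relative with the highest level per kilobase in WT, had a log2 fold change of -0.11 (adjusted p = 0.85). Mafg, a small MAF protein, was the highest MAF relative per kilobase in WT and had a log2 fold change of 0.09 (adjusted p = 0.91).

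None of the 2 tested POU2 relatives passed, and Pou2f1, which encodes the widely expressed OCT1, was at 63.2 ± 8.14 CPM in WT and 52.4 ± 11.8 CPM in Jab1 mutants (adjusted p = 0.625, edgeR). Of the ETS genes, Fli1 rose by 3.30 (adjusted p = 0.00491), Ets1 by 2.38 (adjusted p = 0.0204) and Erg by 2.90 on the log2 scale (adjusted p = 0.0374), and Elf1, the highest in WT, was at 0.92 (adjusted p = 0.112). Fli1 and Erg are also endothelial factors. Of 6 endothelial markers 4 were higher in Jab1 mutants at an adjusted p below 0.05 (edgeR), beside 5.19% of all genes tested. The 6 markers summed to 534 to 3640 CPM in Jab1 mutants against 214 to 427 CPM in WT. The part of endothelial RNA was not tested. Cbfb, the shared partner of the RUNX proteins, had a log2 fold change of 0.08 (adjusted p = 0.931). Of the C/EBP relatives, Ddit3, which encodes the stress factor CHOP and whose symbol 2 annotation entries share, rose by 2.30 (adjusted p = 0.0158) and Cebpd by 2.17 (adjusted p = 0.0247), and Cebpg was at 0.92 (adjusted p = 0.0609). The 3 tested Ikaros relatives did not pass, and Ikzf2 and Ikzf5 were at -0.89 and -0.05.

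Of 23 other transcription factors of macrophages and microglia, 18 were tested. In Jab1 mutants 8 of the 18 were higher and 0 lower (adjusted p below 0.05, edgeR), beside 5.19% of all genes tested that were higher. Their median log2 fold change, over the 18, was 1.83. Of the 18, Batf, Batf3 and Lyl1 had 0 WT samples at 1 CPM and passed the filter only through the mutants. All 3 are among the 8, and nothing is read from their calls. Mef2c, a MADS-box factor of microglia, rose from 16 ± 4.88 to 201 ± 81.9 CPM (log2 fold change 3.65, SE 0.41, adjusted p = 0.00128). Lyl1, a blood bHLH factor, was at 0.197 ± 0.168 CPM in WT and 17.5 ± 5.92 CPM in Jab1 mutants (log2 fold change 6.46). Batf, an AP-1 partner of IRF proteins, was at 0.00659 ± 0.00475 CPM in WT, about 1 count per sample, and at 4.8 ± 4.07 CPM in Jab1 mutants. Klf4 rose by 3.58 (adjusted p = 0.00444) and was the 1 gene of the list called in double mutants against WT, at 37.6 ± 3.41 against 4.68 ± 2.47 CPM (log2 fold change 2.99, SE 0.45, adjusted p = 0.0404), and 36.3 ± 2.89 CPM without replicate 3 (adjusted p = 0.0606). The zinc-finger factors Zeb2, highest of the list in WT, and Sall1, a microglial identity factor, did not pass, with Zeb2 at -0.16 (adjusted p = 0.792) and Sall1 at 0.44 (adjusted p = 0.502).

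Of 22 myeloid genes that PU.1, IRF8, RUNX1 or C/EBP proteins are known to bind (the targets), 19 were tested. In Jab1 mutants 14 of the 19 were higher and 0 lower (adjusted p below 0.05, edgeR), beside 5.19% of all genes tested that were higher. Their median log2 fold change, over the 19, was 3.98. Whether the factors act on these genes here was not tested. Of the 19, Csf2rb, Cybb and Btk had 0 WT samples at 1 CPM and passed the filter only through the mutants. All 3 are among the 14, and nothing is read from their calls. Aif1, the microglial calcium-binding protein IBA1, rose from 1.98 ± 1.17 to 75.7 ± 19.5 CPM (log2 fold change 5.26, SE 0.52, adjusted p = 0.000549). Csf1r, the receptor on which microglia depend for survival, rose from 17.2 ± 5.96 to 219 ± 69.6 CPM (log2 fold change 3.67, SE 0.38, adjusted p = 0.000711). Fcgr3, an IgG receptor, rose by 3.23 on the log2 scale (adjusted p = 0.00265). Csf2rb, the shared β chain of the GM-CSF, IL-3 and IL-5 receptors, had 0 counts in all WT samples and 32 ± 26.5 CPM in Jab1 mutants, at least 1174-fold higher against a floor of 3 counts per library, though its close copy Csf2rb2 may share reads with it. Cybb, the NADPH oxidase subunit, was likewise at 0 in WT and at least 220-fold higher in Jab1 mutants. The median of 3.98 was the same with these 2 genes at their bounds. Cst3, the target highest in WT and a gene of several brain cell types, had a log2 fold change of 0.07 (adjusted p = 0.939).

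In double mutants against WT, 0 of the 27 family relatives, 1 of the 18 other factors and 0 of the 19 targets passed at an adjusted p below 0.05 (edgeR), while 12, 8 and 15 of them had an unadjusted p below 0.05, beside 12.4% of all genes tested. Of those 12 relatives 11 were higher, and the 8 and 15 all were. Without replicate 3 the numbers were 11, 5 and 11, beside 9.49% of all genes. Their median log2 fold changes were 0.99, 1.10 and 4.59, beside 0 for all genes tested, and 0.83, 0.65 and 2.82 without replicate 3, beside 0.02. In double against Jab1 mutants, 0 of each list passed, and 3, 2 and 2 had an unadjusted p below 0.05, all lower, beside 5% of all genes. The medians were -0.24, -0.36 and 0.36. Without replicate 3 the numbers were 3, 4 and 10, all lower, beside 5.23% of all genes, and the medians were -0.22, -0.63 and -1.44, so that the median of the targets changed sign. Csf1r, as Irf8 did, changed sign in double against Jab1 mutants, from 0.89 (SE 0.97) to -1.44 without replicate 3.

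**Figure D4:**
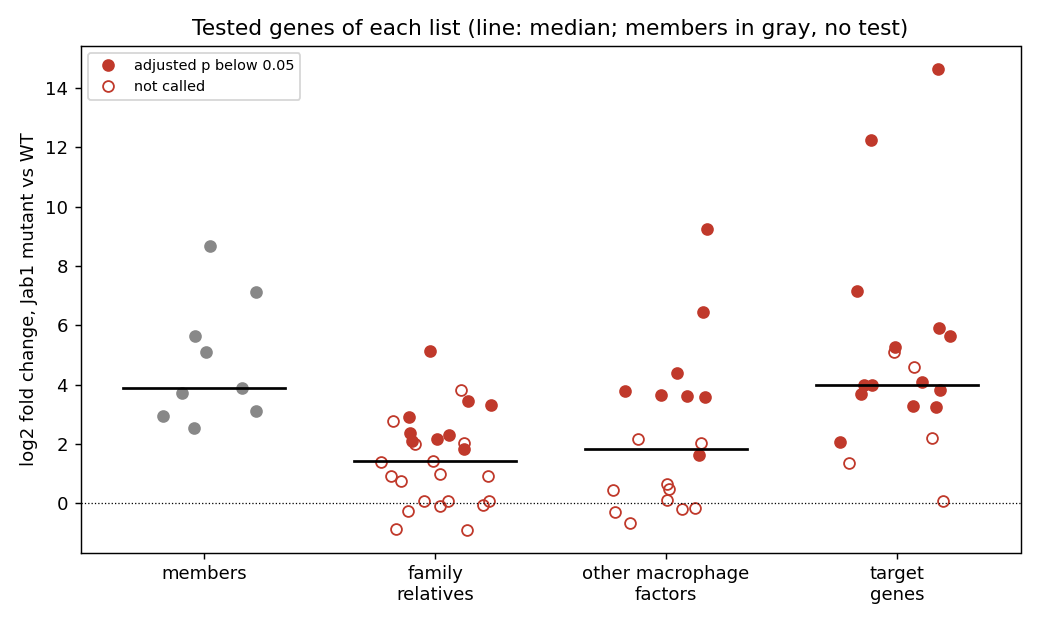
Log2 fold changes (edgeR) of Jab1 mutants against WT for the 9 factors, 27 family relatives, 18 other macrophage factors and 19 target genes, each point 1 gene and each line a median (3.89, 1.42, 1.83 and 3.98). Filled points passed an adjusted p of 0.05, and the 9 factors are drawn in gray because they were selected on this contrast. The highest 2 target points, Csf2rb and Cybb, had 0 counts in WT, and their height depends on the prior count.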

How the data were processed

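RNA-Seq was deposited for 12 samples, 4 per genotype. According to the submitters' notes and the methods, SMART-Seq v4 libraries were trimmed with Trimmomatic 0.32, aligned to GRCm38 with STAR 2.5.3a and counted with featureCounts. The deposited values were the authors' raw counts per gene symbol, and no column was left out. Strand use and the handling of reads with several matches are not given in the sources used here.

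CPM values were computed with TMM factors from all 12 samples. Each pair of genotypes was fitted on its 8 samples by the quasi-likelihood method of edgeR 4.0.16 in R 4.3.3, over 17716 genes that reached 1 CPM in 4 or more samples, with Benjamini-Hochberg adjustment at 0.05. The study's tool DESeq2 (1.42.0), limma-voom (limma 3.58.1), other filters and scalings and each sample left out were alternatives. Positions and exon lengths are from GENCODE M21. Counts of 3 or fewer per library were taken as the floor, for counting error only, since reads carry no molecular identifiers. Replicates were separate pools of 2 brains.

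The members and gene lists were chosen with earlier results of these data known. Named were all members, of each other list at most the 4 called genes with the smallest adjusted p per direction and comparison and the gene highest in WT, the relative highest per length of each family, the 5 genes most like the members by 2 measures, Ptprc, Itgam, Cops5 and Cdkn1a. Sall1, Cybb and Csf2rb2 were named outside this rule, after their values were seen, as were overlapping genes. Values of a few listed genes are not reported here.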

Additional observations from a re-analysis of the deposited data

Results flagged for a closer look

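Of the 27 groups of 4 samples examined, 9 factors in 3 genotypes, 6 held a sample whose gap to its nearest neighbor took up more of the group's whole range than Dixon's critical value for 4 samples. Chance alone would mark about 1 group in 20 when values are normally distributed, and the groups are not independent, since 3 of the 6 came from double-mutant replicate 3. In that library Irf5 was at 75.7 CPM (gap of 0.849 of the range), Spi1 at 105 CPM (0.840) and Ikzf1 at 21.2 CPM (0.875), and its microglial markers summed to 24176 CPM against 476 to 2730 CPM in the other double mutants. Their part in these levels was not tested.

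Pou2f2 was marked in another double mutant, replicate 5, at 72.8 CPM against 19 to 23.6 CPM in the other three (0.916), and remained there below the lowest Jab1 mutant at 106 CPM. In WT, Runx1 was at 0.724 CPM in replicate 3 (0.975) with at most 2 counts in the others, and Ikzf1 at 0.152 CPM in replicate 6 with 0 counts in the others.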

How the results depend on the processing

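Without TMM factors, all 27 group means of the factors moved by less than 1 SD. In Jab1 mutants against WT the 7 calls among the factors became 5 with all 12 samples in one fit, and stood at 6 to 7 when each sample was left out, while the relatives stood at 6 to 9 and the targets at 10 to 14. The factors were chosen for this contrast, so nothing is read from how steady their calls were. With the replicate block, in a fit of all 12 samples, 2 factors, 2 relatives, 3 other macrophage factors and 1 target were called, and 76 genes in all were higher. Same-numbered samples of different genotypes had correlations of -0.188 to 0.083, and not every sample correlated best with its own number, so the numbers were not taken to pair the samples. Among the other macrophage factors 5 were called with no filter and 5 with a mean of at least 10 CPM, and 5 to 10 when each sample was left out (5 without WT replicate 6 or Jab1-mutant replicate 3, 10 without Jab1-mutant replicate 2). Among the targets 9 were called with all 12 samples in one fit.

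In double mutants against WT, where 1 factor was called, the count was 5 with DESeq2, 0 with no filter, 2 with a mean of at least 10 CPM, 2 with all 12 samples in one fit and 0 to 3 when each sample was left out (3 without double-mutant replicate 1: Irf8, Pou2f2 and Spi1). In double against Jab1 mutants it was 1 with DESeq2. There, Irf8 had a log2 fold change of -1.07 with the replicate block, -1.16 with limma-voom and -1.54 to 0.65 when each sample was left out. Irf5 was at -0.56, -0.48 and -1.07 to 0.82, and Spi1 at -0.04, -1.99 and -0.98 to 1.73. In each of these ranges the lowest value, the only one below 0, was without double-mutant replicate 3. The cause was not tested. Depth was not the limit for most values, at 61.5 or more counts per CPM, but WT levels of Ikzf1, Runx1 and Cebpa rest on few counts.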
